A study of Mus musculus with 38 samples.

Results

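The 10 genes described here belong to the YAP/TEAD arm of the Hippo pathway: the coactivators Yap1 and Wwtr1 (whose protein is TAZ), the DNA-binding partners Tead1, Tead2 and Tead3, and 5 genes that this complex is known to switch on, Ccn1 (formerly Cyr61), Ccn2 (formerly Ctgf), Ankrd1, Amotl2 and Ptpn14. They were picked by name from 55487 genes of the count tables, with earlier results of these same counts in view. Their changes with oxygen, co-culture and drug are therefore a description, and a count of genes past a test's threshold supports nothing beyond where each gene lies. All 10 were found under 1 Ensembl identifier each, and none shared a 75-base word of its exons with another gene. In the mm10 annotation the coactivator genes are Yap1 (ENSMUSG00000053110) at chr9:7931999-8004596 on the minus strand and Wwtr1 (ENSMUSG00000027803) at chr3:57455649-57575910 on the minus strand. Of the targets, Ccn2 (ENSMUSG00000019997) lies at chr10:24595442-24598683 on the plus strand and Ptpn14 (ENSMUSG00000026604) at chr1:189728268-189876695 on the plus strand. All 10 are protein-coding.

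The 38 RNA-seq libraries, all from mouse, form 16 groups of 2 and 2 groups of 3. The cells were BV2, a murine microglial line, GL261, a murine glioma line that stably carries pEGFP-N1, and wild-type bone marrow-derived macrophages (BMDM), which are primary cells. In the first experiment BV2, GL261 and BMDM grew alone or in direct co-culture (2 GL261 cells per BV2 cell, 1 per BMDM), at 21% oxygen (normoxia) or below 0.1% oxygen (hypoxia) for 16 h. In the panobinostat experiment BV2 and BMDM without glioma cells received DMSO in normoxia, DMSO in hypoxia, or panobinostat at 10 nM (which blocks histone deacetylases) in hypoxia. BV2 co-cultures and the BV2 of the panobinostat experiment were in medium with 2% serum, and the corresponding BMDM cultures in medium with 10%. The medium of the monocultures is not stated, so medium and partner cannot be told apart in the co-culture comparisons. How co-cultured cells were separated is also not stated. BV2 and GL261 are 1 line each, and the number of mice behind the BMDM is not given. In the first experiment the labels of BV2 and GL261 speak of biological replicates, and the other labels do not. Elsewhere the p-values measure the spread between these libraries, which may be technical.

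Total counts were 13548843 to 27238933 in the 16 BV2 and GL261 libraries that share a table, 9909367 to 17000536 in the 10 BMDM libraries of the first experiment and 9634700 to 15869246 in the 12 libraries with DMSO or drug. Levels are counts scaled to the library's total (CPM), and log2 fold changes come from edgeR's quasi-likelihood test. Their standard errors (SE) were derived from that test, as the absolute log2 fold change over the square root of its F statistic. A change is called where the p-value adjusted over all genes tested is under 0.05. All 12 myeloid markers examined (Csf1r, Adgre1 and others) were found in every BMDM library. Their sum was 7029 to 12085 CPM in the first BMDM experiment, 2801 to 5230.4 CPM in the BV2 libraries of both experiments and 3.56 to 48.0 CPM in GL261. GL261 libraries held 9 or 10 of 10 glioma and neural markers, at a sum of 1551 to 2778 CPM. In the first experiment BMDM libraries held 3 to 9 of them (143 to 285 CPM) and BV2 libraries 1 to 9 (6.46 to 48.9 CPM). The BMDM libraries of the panobinostat experiment stood apart: 12 stromal markers (Col1a1, Dcn, Pdgfrb and others) summed to 2814 to 24182 CPM there, against 75.9 to 620.0 CPM in the first BMDM experiment, with 11 or 12 of the 12 found in the former and 7 to 11 in the latter. GL261 libraries summed to 732 to 1193 CPM, with Dcn, Lum, Thy1 and Fap at no more than 3 counts in any of them. Fewer cells of a type and less RNA per cell cannot be told apart in such bulk libraries.

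The Hippo pathway is a kinase cascade (Stk3 and Stk4, then Lats1 and Lats2) that phosphorylates YAP and TAZ and keeps them out of the nucleus. When the cascade is off, as in spread or stretched cells, YAP and TAZ enter the nucleus, bind TEAD factors and raise a set of target genes that act on matrix, cell shape and growth. Several of those targets feed back on the pathway: Amotl2 and Ptpn14 encode proteins that bind YAP and hold it in the cytoplasm, and Lats2 is itself a target. Adherent, matrix-producing cells use this pathway strongly, whereas blood-derived cells such as macrophages are known for little YAP.

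TEAD factors bind the core CATTCC, so the RefSeq promoter windows (GRCm38.p6, the same assembly as mm10) were searched for it on both strands, as CATTCC or GGAATG, over the 250 bases before the start. Of the 10 genes, 8 are in the table (all but Ccn2 and Tead1), and 7 of the 8 held the core in at least 1 window, Tead2 being the one without. Among all 32851 windows of the same length 12.6% held it. The count for the set is per gene, over any of its windows, whereas this share is per window. Window 3 of Tead3 had no match. The AP-1 site TGANTCA was in none of the 8 genes' windows (6.75% of all windows), and the core of the hypoxia response element, ACGTG or CACGT, only in that of Yap1 (16.6% of all windows). A match of letters is not evidence of binding. The windows below are shown because 4 of them belong to the target genes whose values the results turn on and the fifth to Wwtr1, the coactivator gene whose level moved with oxygen. Capitals mark the core, and each line runs 5′ to 3′ on the strand of the gene.

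Ccn1 (chr3:145649986-145650235, minus strand): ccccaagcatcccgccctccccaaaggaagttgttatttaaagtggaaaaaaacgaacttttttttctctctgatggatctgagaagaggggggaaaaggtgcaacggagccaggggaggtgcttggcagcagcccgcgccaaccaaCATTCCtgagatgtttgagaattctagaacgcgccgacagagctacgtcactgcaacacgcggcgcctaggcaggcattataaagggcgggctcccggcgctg
Ankrd1 (chr19:36119845-36120094, minus strand): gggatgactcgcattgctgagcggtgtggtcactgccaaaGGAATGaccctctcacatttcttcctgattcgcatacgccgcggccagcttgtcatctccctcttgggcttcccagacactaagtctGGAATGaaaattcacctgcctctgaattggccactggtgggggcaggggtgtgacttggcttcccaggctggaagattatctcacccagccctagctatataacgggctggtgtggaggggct
Amotl2 (chr9:102717554-102717803, plus strand): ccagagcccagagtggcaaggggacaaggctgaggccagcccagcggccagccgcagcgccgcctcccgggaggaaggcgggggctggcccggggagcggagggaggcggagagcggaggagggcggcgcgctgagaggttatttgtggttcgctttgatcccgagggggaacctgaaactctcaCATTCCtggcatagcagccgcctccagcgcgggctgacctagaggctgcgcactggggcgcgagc
Ptpn14 (chr1:189728018-189728267, plus strand): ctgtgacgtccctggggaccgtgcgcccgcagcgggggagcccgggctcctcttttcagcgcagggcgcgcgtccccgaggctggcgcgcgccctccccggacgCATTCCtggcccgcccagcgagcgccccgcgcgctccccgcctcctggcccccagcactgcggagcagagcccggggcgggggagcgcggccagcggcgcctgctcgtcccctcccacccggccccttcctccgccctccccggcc
Wwtr1 (chr3:57575911-57576160, minus strand): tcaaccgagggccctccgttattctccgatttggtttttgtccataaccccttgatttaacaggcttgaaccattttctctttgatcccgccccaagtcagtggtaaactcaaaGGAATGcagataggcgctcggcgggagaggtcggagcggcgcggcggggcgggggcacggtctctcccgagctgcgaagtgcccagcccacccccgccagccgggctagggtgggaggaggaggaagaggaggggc

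The core starts 103 bases before the start of Ccn1, a secreted matrix protein gene, 65 before Amotl2 and 146 before Ptpn14, all in the orientation CATTCC. Ankrd1, which encodes an ankyrin-repeat protein of muscle and stressed cells, carried it at 210 and 123 bases, and Wwtr1 at 136 bases, both in the opposite orientation.

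In GL261 cells 9 of the 10 genes were well above the floor of 3 counts, and Ankrd1 had 20 counts in both normoxic monocultures together. In normoxic GL261 monocultures all 10 were higher than in normoxic BV2 (73.2% of 16882 genes differed between the lines). Per kilobase of annotated exon, the GL261 level was highest for Ccn1 at 196 ± 7.10 CPM (SD, n = 2). Tead2 (28.2 ± 2.19), Amotl2 (24.1 ± 4.61) and Yap1 (20.8 ± 2.10) came next, and each overlapped its neighbour in that order. Ccn2 had 16.2 ± 1.27 CPM per kilobase, Wwtr1 9.76 ± 0.0141, Tead1 7.86 ± 0.773, Ptpn14 6.63 ± 1.23, Tead3 2.19 ± 0.110 and Ankrd1 0.186 ± 0.0408. Of these, only Tead1 and Ptpn14 overlapped as neighbours. The exon length joins all annotated exons of a gene, so the order between genes depends on it.

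Hypoxia changed the balance of the coactivators in GL261 cells, with Wwtr1 rising and Yap1 not passing the threshold in monocultures. Wwtr1 was at 46.7 and 46.6 CPM in normoxic monocultures and at 117 and 120 CPM in hypoxic ones, a log2 fold change of 1.39 (SE 0.12). Yap1 was at 179 and 207 CPM in normoxia and 203 and 191 CPM in hypoxia (0.08, SE 0.13), so its libraries overlapped. Beside BV2 cells Wwtr1 went from 34.4 and 38.1 CPM to 132 and 144 CPM (1.99, SE 0.12). Yap1 there went from 185 and 186 CPM to 233 and 226 CPM (0.37, SE 0.13), a small change that passed the threshold with all libraries and in none of the 4 fits without 1 of them. Scaled by exon length, the Wwtr1 level was 0.359 to 0.505 of the Yap1 level in the 4 normoxic libraries and 1.10 to 1.24 of it in the 4 hypoxic ones, with no overlap. Which of the 2 genes has more RNA depends on the exon length used, and the shift of the ratio with oxygen does not.

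The TEAD genes moved in opposite directions. Tead1 was at 99.2 and 114 CPM in normoxic monocultures and 215 and 204 CPM in hypoxic ones (log2 fold change 1.03, SE 0.13), and beside BV2 it went from 92.1 and 104 CPM to 229 and 234 CPM (1.30, SE 0.13). Tead2 went the other way, from 128 and 142 CPM to 57.7 and 62.8 CPM in monocultures (-1.11, SE 0.15) and from 126 and 118 CPM to 45.8 and 65.7 CPM beside BV2 (-1.07, SE 0.15). Tead3, the least abundant of the 3, had -0.57 (SE 0.19) and -0.61 (SE 0.19), calls that were lost in 3 of 4 fits without 1 library in each culture. Per exon length, Tead1 was at 0.257 to 0.313 of the Tead2 level in the normoxic libraries and at 1.14 to 1.77 of it in the hypoxic ones. Hypoxic and normoxic libraries did not overlap in this ratio, and here too only the shift is independent of the exon length used.

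**Figure D1:**
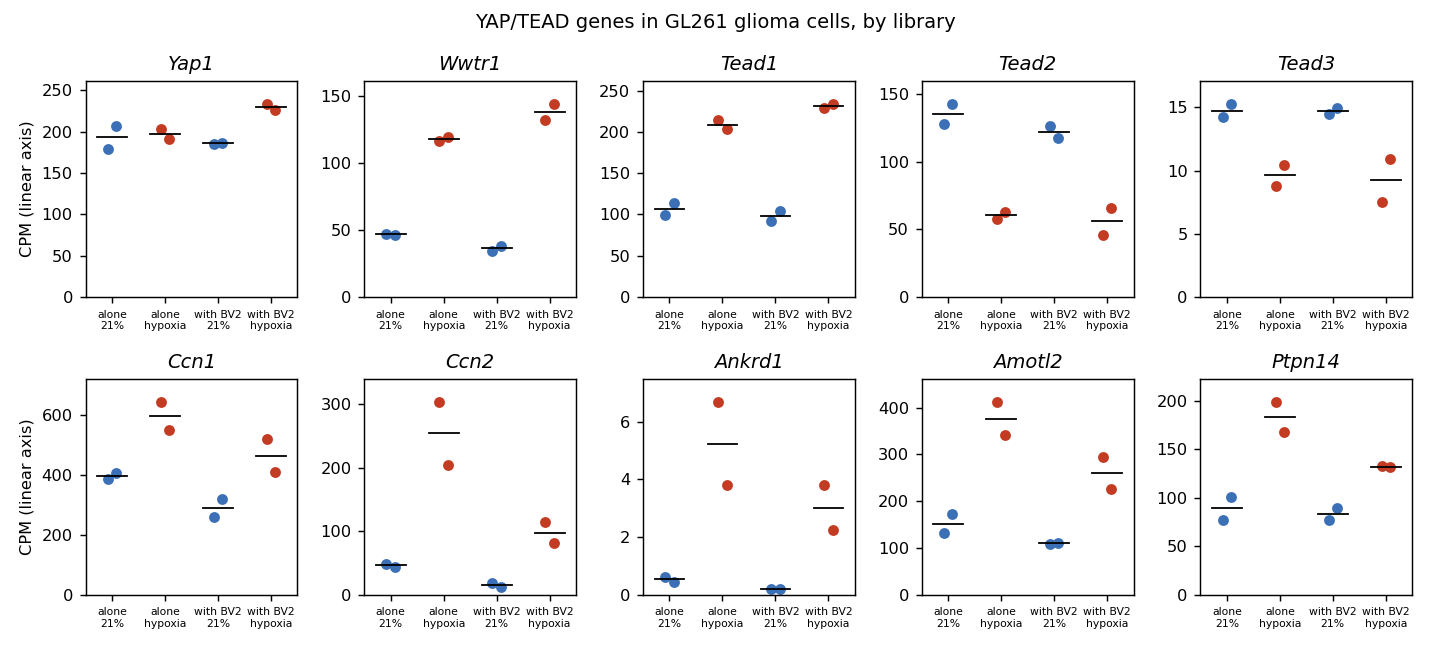
Level of each gene in the 8 GL261 libraries, in CPM on a linear axis from 0. Points are libraries (blue, 21% oxygen; red, hypoxia) and bars are group means. Wwtr1, Tead1 and the 5 targets are higher in hypoxia in both cultures, Tead2 and Tead3 are lower, and Ccn2 is lower beside BV2 at both oxygen levels.

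All 5 target genes rose with hypoxia in GL261 cells, in both cultures. Ccn2, which encodes a secreted matrix regulator and is among the most used YAP readouts, was at 49.0 and 43.9 CPM in normoxic and 304 and 204 CPM in hypoxic monocultures (log2 fold change 2.51, SE 0.25). Beside BV2 it went from 17.6 and 12.6 CPM to 114 and 81.4 CPM (2.76, SE 0.27). Ccn1, the most abundant of the targets, moved least in monocultures: 385 and 405 CPM became 643 and 550 CPM (0.65, SE 0.18). Its change beside BV2 was 0.74 (SE 0.18), and its call was lost without hypoxic library 1 or normoxic library 1 in monocultures and without normoxic library 1 beside BV2. Ankrd1 had 20 counts in both normoxic monocultures together and 250 in the hypoxic ones, a ratio of 10.2 (exact 95% interval 6.48 to 17.04, counting error only). Beside BV2 it had 6 and 104 counts, a ratio of 15.7 (6.98 to 43.8).

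The 2 targets that restrain YAP rose as well. Amotl2, a junction protein gene of the angiomotin family, went from 131 and 172 CPM to 412 and 341 CPM in monocultures (log2 fold change 1.37, SE 0.19) and from 108 and 111 CPM to 294 and 227 CPM beside BV2 (1.31, SE 0.19). Ptpn14, a tyrosine phosphatase gene, went from 77.3 and 101 CPM to 199 and 168 CPM (1.11, SE 0.16) and, beside BV2, from 77.0 and 89.1 CPM to 133 and 131 CPM (0.73, SE 0.16). The median over the 10 genes was 1.07 in monocultures (all genes, -0.03) and 1.02 beside BV2 (-0.04). In all, 9 of 10 genes passed the threshold in monocultures, 7 higher and 2 lower, where 44.6% of 15189 genes did, 23.2% higher and 21.4% lower. Beside BV2, 10 of 10 passed, 8 higher and 2 lower, against 52.4% of all genes (26.8% higher, 25.6% lower). Since the genes were picked with these contrasts in view, nothing is read from the difference.

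The hypoxia response did not differ detectably between GL261 cells alone and those with BV2. In the test of that difference 0 of 10 genes passed, and 0% of 15189 genes did in edgeR, with 1354 at an unadjusted p under 0.05 and 47 called by DESeq2. The 10 differences ran from -0.38 (SE 0.22) for Ptpn14 to 0.67 (SE 0.82) for Ankrd1, and that of Wwtr1 was 0.60 (SE 0.17).

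Between GL261 cells beside BV2 and GL261 cells alone, 1 of the 10 genes had a call. Ccn2 was lower in GL261 cells beside BV2 in normoxia (log2 fold change -1.57, SE 0.26) and in hypoxia (-1.33, SE 0.24), with no overlap between the libraries given above. In normoxia 0.514% of all genes passed the threshold and in hypoxia 1.39%. The normoxic call was lost in each of 4 fits without 1 library (log2 fold changes -1.84 to -1.35) and when genes high in BV2 were left out of the test. That in hypoxia was lost without co-culture library 2 (-1.08) or monoculture library 1 (-0.95), and with only the groups compared in the fit. The 9 genes without a call had log2 fold changes of -1.43 to 0.05 in normoxia and -0.76 to 0.28 in hypoxia, within which the other 4 targets had values of -1.43 to -0.05 in normoxia and -0.76 to -0.31 in hypoxia. BV2-specific transcripts were at 0.214% to 0.915% of their BV2 level in the co-cultured GL261 libraries, and BV2 monocultures held 0 or 1 count of Ccn2.

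**Figure D2:**
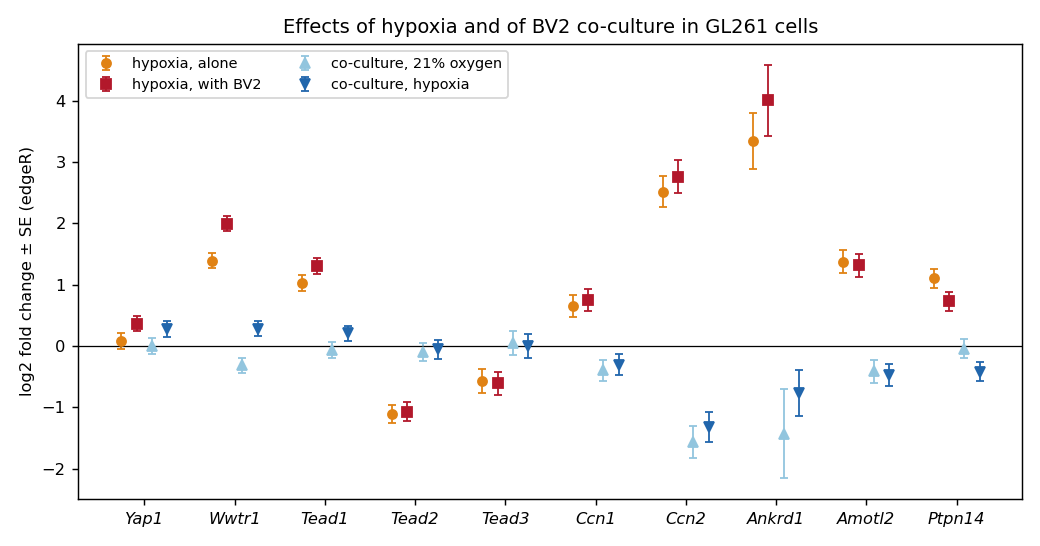
Log2 fold changes with SE (edgeR) of the 10 genes in GL261 cells, for hypoxia against normoxia in each culture and for co-culture against monoculture at each oxygen level. The hypoxia effects of Ccn2 (2.51 and 2.76) and Ankrd1 (3.338 and 4.003) stand highest, and Ccn2 has the lowest co-culture values with a call (-1.57 and -1.33).

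Other genes of the pathway, taken from a list of 25 upstream genes and cofactors, were called higher more often than lower in hypoxic GL261 cells. That list and the list of further targets were written with earlier results of these data known, so their counts are a description. In monocultures 12 rose, 1 fell and 11 did not pass of 24 tested, where 23.2% of all genes rose and 21.4% fell (median log2 fold change 0.38, against -0.03 over all genes). Beside BV2 14 rose, 0 fell and 10 did not pass, where 26.8% of all genes rose and 25.6% fell (0.69, against -0.04). The LIM protein gene Ajuba, an inhibitor of LATS kinases, rose most, with a level of 264 ± 12.9 CPM in normoxia and 1277 ± 114 CPM in hypoxia (SD, n = 2) and a difference of 2.33 on the log2 scale (SE 0.18) alone, and 2.30 beside BV2. Frmd6, a FERM-domain gene upstream of the kinases, rose by 1.39 and 1.70. Amot, the third angiomotin, fell by 0.65 in monocultures. Of 16 further genes known as YAP/TAZ targets 11 were tested. In monocultures 5 rose and 1 fell (median 0.53), and beside BV2 7 rose and 1 fell (0.99), against the same shares of all genes. Gadd45a, a stress and growth-arrest gene, had 42.1 ± 8.66 CPM in normoxia and 277 ± 17.4 CPM in hypoxia and rose by 2.76 (SE 0.18) alone and by 3.56 beside BV2. F3, the tissue factor gene, rose by 1.43 alone, Myof, a membrane-repair gene, by 1.93 beside BV2, and Fjx1 fell by 1.05 and 1.67. In the comparison of cultures, 0 genes of both lists passed in normoxia. In hypoxia Amotl1 was higher beside BV2 (0.68, SE 0.12) and Lats2 lower (-0.55, SE 0.12).

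Across the 8 GL261 libraries the genes with a pattern most like that of Ccn2, by Pearson's r of log2 CPM among 8657 genes, were Dnajb4 (0.991), Card10 (0.988), Dzip1l (0.986), Usp16 (0.985) and Lats2 (0.984). With Ccn2 itself counted as rank 1, Amotl2 ranked 40 (0.964) and Ccn1 76 (0.95). Ptpn14 ranked 463, Wwtr1 1093, Tead1 1555 and Yap1 3955 (0.446), while Tead2 (-0.819) ran opposite. Ankrd1 (0.961, rank 45) and Tead3 (-0.856, rank 7783) were ranked on top of the 8657 genes, though under the mean log2 CPM of 4 required of those. These libraries share 4 culture conditions, so the coefficients describe the order and carry no test.

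BV2 cells alone expressed 2 of the 10 genes, Wwtr1 and Ptpn14. The other 8 had 0 to 6 counts in each of the 4 monoculture libraries, at most 0.323 CPM. Wwtr1 was at 19.4 and 17.7 CPM in normoxia and 28.1 and 29.1 CPM in hypoxia (log2 fold change 0.67, SE 0.13). Ptpn14 was at 0.721 and 0.409 CPM in normoxia and 9.77 and 11.04 CPM in hypoxia (4.22, SE 0.26). Neither gene's groups overlapped. These were the 2 of 8 tested that passed, and 61.9% of 14432 genes passed in the same comparison. Without hypoxic library 1, 4 passed, the added genes being Yap1 and Ccn1, which rest on at most 6 counts.

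The same 2 genes were higher in hypoxia in the BV2 of the panobinostat experiment. With DMSO, Ptpn14 went from 3.502 and 1.94 CPM to 40.3 and 31.7 CPM (log2 fold change 3.88, SE 0.43). Wwtr1 went from 30.4 and 16.4 CPM to 53.2 and 36.3 CPM (1.10, SE 0.35), a call lost without hypoxic library 1 (0.68) or normoxic library 2 (0.75). They were 2 of 4 tested, against 37.5% of 13294 genes. Panobinostat lowered Ptpn14 in hypoxia to 11.6 and 5.76 CPM (-2.16, SE 0.39), 1 of 4 tested against 14.6% of all genes. Wwtr1 was at 36.3 and 25.3 CPM with the drug (-0.65, SE 0.35) and did not pass. With the replicate number as a block it passed (-0.64). Ccn2 was at 0.287 to 2.20 CPM and Ccn1 at 0.602 to 0.934 CPM across the 6 libraries, without a call. Stromal markers summed to 18.1 to 31.3 CPM in these libraries. In the first experiment they summed to 0.908 to 2.05 CPM in BV2 alone and to 7.23 to 21.3 CPM in BV2 beside GL261. The part of stromal RNA in the Ccn1 and Ccn2 levels was not tested.

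**Figure D3:**
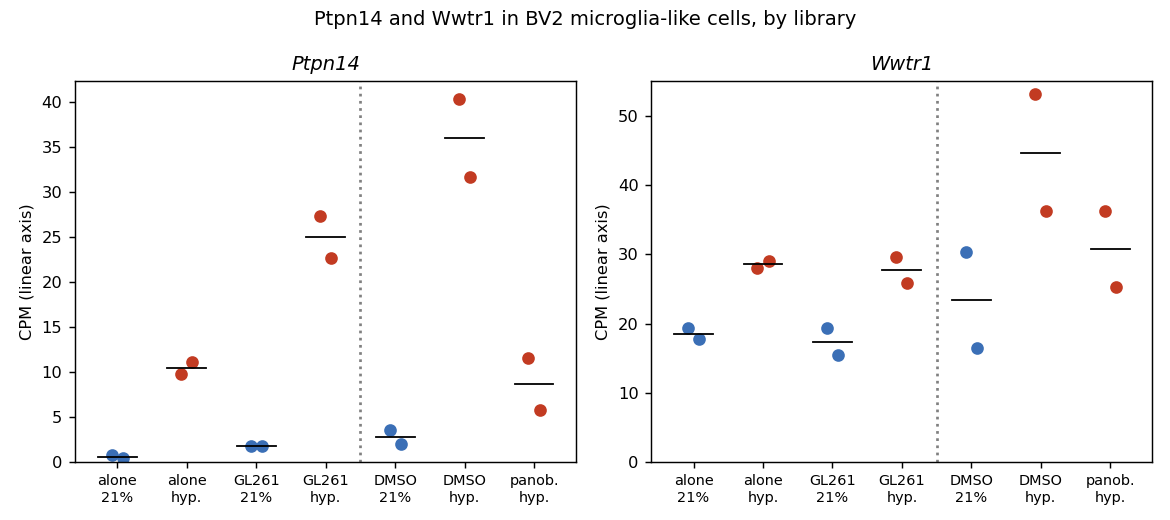
Ptpn14 and Wwtr1 in the 14 BV2 libraries, in CPM on linear axes from 0 (blue, 21% oxygen; red, hypoxia; bars, group means; the dotted line separates the first from the panobinostat experiment). Ptpn14 is higher in hypoxia in each setting and falls from 40.3 and 31.7 to 11.6 and 5.76 CPM with panobinostat.

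The hypoxia response of these 2 genes differed between the lines. Against BV2, the rise of Wwtr1 in GL261 was larger by 0.62 (SE 0.18) on the log2 scale and that of Ptpn14 smaller by 3.22 (-3.22, SE 0.32). They were the 2 of 10 genes with a call, where 37.4% of 16882 genes had one. Over all genes the median of this difference was -0.15, and relative to it the values were 0.77 and -3.07. The call for Wwtr1 was lost without normoxic BV2 library 1 (0.54).

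Among the upstream genes and cofactors, 8 rose and 3 fell of 22 tested in hypoxic BV2 monocultures (30.9% of all genes rose and 31% fell). Wwc1 (Kibra), an activator of LATS kinases, rose by 2.91 (SE 0.25) and the TEAD-binding Vgll4 by 1.19, while Limd1 fell by 0.82 and Frmd6 by 0.53. With DMSO 6 rose and 1 fell of 21 (17.2% and 20.2% of all genes), again with Wwc1 (3.45) and Vgll4 (1.19) highest and Limd1 (-0.90) the one that fell. Of the further targets, 5 rose and 2 fell of 11 in monocultures, with Gadd45a (2.85) and Myof (1.17) at one end and Nuak2 (-1.30) and Asap1 (-0.36) at the other. With DMSO 3 rose and 2 fell of 10, with Gadd45a at 2.65 and Myof at 1.10, while Nuak2 fell by 2.06 and Fjx1 by 1.97. Panobinostat raised 3 and lowered 2 of the 21 upstream genes (7.21% and 7.39% of all genes): Frmd6 (1.41) and Wwc2 (0.92) rose most, the cadherin gene Dchs1 (-3.17) and Mob1a (-0.82) fell, and 0 of the 10 further targets passed.

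Beside GL261 cells, BV2 libraries held most other genes of the set, in hypoxia at close to 1 proportion of the GL261 level. In normoxia 6 of 8 genes tested were higher than in BV2 alone (14.9% of all genes passed) and in hypoxia 7 of 8 (15.7%). Between the oxygen levels in co-culture 7 of 8 rose (67.3%). Yap1 was at 1.92 and 1.10 CPM in normoxic and 4.70 and 4.51 CPM in hypoxic co-culture, Ccn1 at 1.85 and 1.53 and then 11.7 and 9.93 CPM, and Ccn2 at 0.0738 and 0 and then 2.38 and 1.92 CPM. GL261-specific transcripts stood at 0.952% and 0.565% of their GL261 monoculture level in the normoxic and at 2.07% and 2.33% in the hypoxic libraries. In hypoxia the BV2 level was 2.01% of that in co-cultured GL261 for Yap1, 2.20% for Tead1, 2.20% for Ccn2, 2.25% for Amotl2, 2.33% for Ccn1, 3.17% for Tead2 and 3.60% for Tead3, where GL261-specific genes had a median of 2.33% (5th to 95th percentile 1.76% to 3.23%). All genes of the set but Tead3, Wwtr1 and Ptpn14 lay within that range, other than Ankrd1 with 1 count in both libraries together. In normoxia that range was 0.599% to 1.32% with a median of 0.861%. Yap1 (0.811%), Tead1 (0.664%), Amotl2 (0.755%) and Tead2 (1.01%) lay within it, Ccn1 (0.584%) and Ccn2 (0.244%, 1 count in all) below it and Tead3 (1.44%, 6 counts in all) above it. Leaving out genes at least 4-fold higher in GL261 took every gene called in the co-culture comparisons out of the test.

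Wwtr1 and Ptpn14 did not follow that proportion. Ptpn14 in co-cultured BV2 was at 2.08% of the GL261 level in normoxia and 18.9% in hypoxia. Wwtr1 was at 48.0% of the GL261 level in normoxia and 20.1% in hypoxia, and its level did not pass between BV2 alone and beside GL261 (-0.15, SE 0.14, and -0.03, SE 0.13). Ptpn14 was at 27.3 and 22.7 CPM in hypoxic co-culture, against 9.77 and 11.04 CPM alone (log2 fold change 1.27, SE 0.17). Taking off the GL261 share times the GL261 monoculture level, 4.13 CPM, left a mean of 20.8 CPM. In normoxia Ptpn14 was at 1.70 and 1.75 CPM beside GL261, 1.04 CPM after the same step, and that call was lost without co-culture library 2 or monoculture library 2. With DMSO and no glioma cells, in medium with 2% serum as in the co-cultures, BV2 held 40.3 and 31.7 CPM of Ptpn14 in hypoxia. In normoxia they held 3.502 and 1.94 CPM. Those libraries belong to the panobinostat experiment, and the part of medium or experiment in the Ptpn14 difference beside GL261 was not tested.

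**Figure D4:**
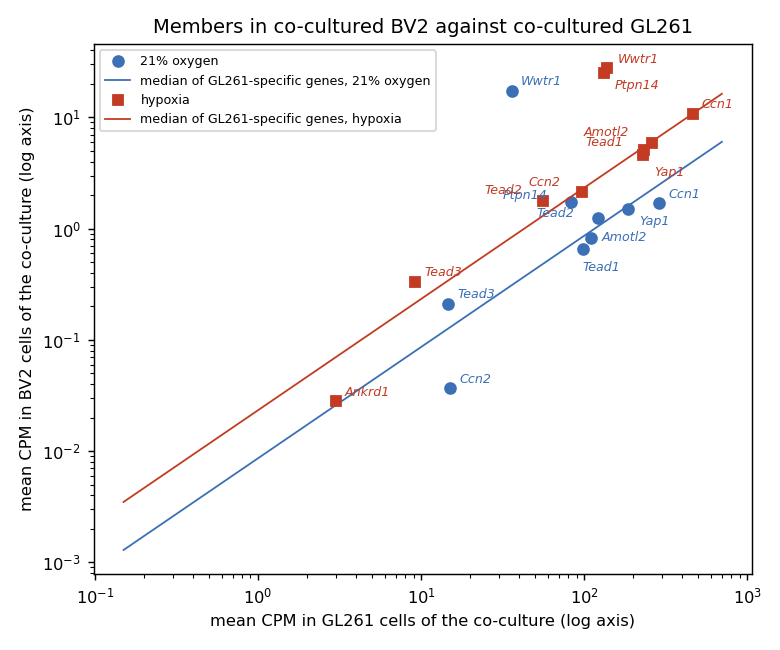
Mean level of the 10 genes in co-cultured BV2 against that in GL261 cells of the same co-culture, in CPM on log axes (blue, 21% oxygen; red, hypoxia; genes at 0 in BV2 are not drawn). Lines show the median proportion of GL261-specific genes. In hypoxia most genes lie near their line, Wwtr1 and Ptpn14 lie above it at both oxygen levels, and Ccn2 lies below it in normoxia.

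Macrophages of the first experiment held the set at low levels when grown alone. Ccn2 was the highest, at 14.9 and 15.9 CPM in normoxia and 14.3 and 17.5 CPM in hypoxia, and Ccn1 followed at 6.41 and 7.21 and then 4.25 and 4.49 CPM. Amotl2 was at 3.13 to 4.92 CPM in these 4 libraries, and Yap1, Wwtr1, the Tead genes, Ankrd1 and Ptpn14 were each under 2 CPM. With hypoxia 0 of 10 genes passed, where 23.9% of 14806 genes did in edgeR (5463 genes had an unadjusted p under 0.05), and DESeq2 also called 0 of the 10 (4086 of all genes). Log2 fold changes of the 10 ran from -1.07 for Tead2 to 1.18 for Wwtr1. Stromal markers summed to 111 to 237 CPM in these libraries. Of the upstream genes and cofactors 4 rose and 1 fell of 24: Wwc1 (3.35, SE 0.63) and Frmd6 (2.07) rose most and Taok2 fell by 0.61. Of the further targets Gadd45a rose (2.55) and Axl fell (-1.35), 2 of 12 tested.

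Beside GL261, the macrophage libraries differed in how much glioma and stromal transcript they held. GL261-specific transcripts were at 1.34%, 2.16% and 3.70% of their GL261 level in normoxic libraries 1, 2 and 3 and at 1.67%, 3.19% and 5.94% in the hypoxic ones. Stromal markers summed to 77.9, 132 and 225 CPM and to 75.9, 186 and 620.0 CPM in the same order. Ccn1 was at 9.21, 16.96 and 31.9 CPM in normoxia and 8.38, 41.8 and 67.9 CPM in hypoxia, and Yap1 at 4.25, 3.17 and 8.68 CPM and 2.92, 8.41 and 19.0 CPM. Library 3 was the highest of its group in each of these 4 measures, while in normoxia Yap1 was lower in library 2 than in library 1 and Wwtr1 was highest in library 2. Because the levels in GL261 and BMDM come from separately deposited tables, the proportions are set across tables.

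In hypoxia 5 of 10 genes were higher beside GL261 than alone (7.11% of all genes passed): Yap1, Wwtr1, Ccn1 and Amotl2, with log2 fold changes of 2.13 to 3.06, and Tead2, which had 0 and 5 counts alone and 24, 46 and 105 counts beside GL261. All 10 genes are at least 4-fold higher in hypoxic GL261 and were out of the test once such genes were left out. The 5 without a call ran from 0.33 for Ccn2 to 2.13 for Tead1. Without the libraries numbered 3, only Tead2 passed, as it did without hypoxic co-culture library 2 or 3, and 0 passed without either hypoxic monoculture library. In hypoxic co-culture Wwtr1 was at 4.91% of its GL261 monoculture level, Yap1 at 5.13%, Amotl2 at 5.35%, Ccn1 at 6.59% and Tead2 at 8.04%. GL261-specific genes had a median of 3.67% (5th to 95th percentile 1.44% to 9.56%). Less that median share, the means were 1.46, 2.87, 6.30, 17.4 and 2.63 CPM in the same order. The means alone were 0.965, 1.26, 4.22, 4.37 and 0.154 CPM. The part of glioma RNA in these calls was not tested. In normoxic co-culture 0 of 10 genes had a call in edgeR (1.64% of all genes passed, and 1905 genes had an unadjusted p under 0.05). DESeq2 called 3 of the 10, and the 10 values ran from -0.51 for Ccn2 to 3.45 for Tead2. Ccn2, at 5.42, 8.27 and 18.4 CPM in normoxic co-culture, overlapped its monoculture level.

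Between the oxygen levels in co-culture, Wwtr1 (log2 fold change 2.38, SE 0.57) and Amotl2 (1.68, SE 0.47) were higher in the hypoxic macrophage libraries. They were 2 of 10 genes, against 34.8% of all genes. Wwtr1 was at 2.57% of its GL261 monoculture level in normoxia and 4.91% in hypoxia, and Amotl2 at 4.48% and 5.35%. GL261-specific genes had medians of 2.48% and 3.67% (5th to 95th percentile 0.960% to 4.84% and 1.44% to 9.56%). The part of glioma RNA in these rises was not tested. Wwtr1 went from 0.392, 1.79 and 1.41 CPM to 2.63, 4.85 and 9.92 CPM, and Amotl2 from 3.99, 7.24 and 9.18 CPM to 6.72, 19.3 and 34.3 CPM, with overlap between groups only for Amotl2. The other 8 ran from -0.01 for Tead3 to 1.15 for Ccn2. With the replicate number as a block 4 passed, Ccn1 (1.02) and Ccn2 (1.05) being added. Without both libraries numbered 3, 0 passed. Without hypoxic library 1, 5 passed, and 1 passed without hypoxic library 3 or normoxic library 1. The difference in hypoxia response between co-culture and monoculture had 0 calls among the 10 genes and 0% of 14806 genes in edgeR, with 636 at an unadjusted p under 0.05 and 9 called by DESeq2.

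In the panobinostat experiment the macrophage libraries carried the set at far higher levels, together with the stromal markers. Ccn2 was at 1308 and 1405 CPM with DMSO in normoxia, 268 and 761 CPM with DMSO in hypoxia and 2403 and 1899 CPM with panobinostat in hypoxia. Stromal markers summed to 24182 and 21711 CPM, 2814 and 14568 CPM, and 9430 and 15429 CPM in the same libraries, with Col1a1 alone at up to 13202 CPM. The myeloid markers summed to 11671 and 7740, 3548 and 5121, and 930 and 2369 CPM. Hypoxic DMSO library 1 was lowest in both Ccn2 and the stromal sum. As a share of the stromal sum, Ccn2 was at 5.41% and 6.47% in normoxia, 9.52% and 5.22% in hypoxia and 25.5% and 12.3% with panobinostat. Tead1 was at 1.56% and 0.791% with DMSO in hypoxia and 3.59% and 2.02% with panobinostat. For Ccn1 the same shares overlapped (4.44% and 1.39%, then 10.5% and 4.16%), and so did those of Amotl2, Yap1 and Wwtr1.

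Hypoxia with DMSO gave a call for Tead2 alone, 1 of 10 genes against 0.483% of 14914 genes. It was at 40.2 and 33.7 CPM in normoxia and 7.18 and 7.47 CPM in hypoxia (log2 fold change -2.24, SE 0.29), and the call was lost without hypoxic library 1 (-2.31), normoxic library 1 (-2.13) or normoxic library 2 (-2.40). Wwtr1 was at 28.8 and 42.2 CPM in normoxia and 73.5 and 84.5 CPM in hypoxia (1.25, SE 0.25) and did not pass. Ccn1 was at 455 and 394 CPM and then 125 and 203 CPM (-1.29, SE 0.37), without overlap and without a call. Over the 9 genes without one the values ran from -1.32 for Ccn2 to 1.25 for Wwtr1. With the replicate number as a block, Wwtr1 (1.26), Tead3 (-1.28) and Ptpn14 (-1.09) passed as well. Yap1 stayed between 71.6 and 93.0 CPM in these 4 libraries.

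With panobinostat 0 of 10 genes and 0% of all genes passed in edgeR, although 3868 genes had an unadjusted p under 0.05. With the replicate number as a block, Tead1 (1.86), Tead3 (1.19), Ccn1 (2.01), Ankrd1 (0.97) and Ptpn14 (1.56) passed. DESeq2 called 2221 genes and 5 of the 10. The 10 log2 fold changes ran from -0.56 for Yap1 to 2.03 for Ccn1. Ccn1 was at 992 and 642 CPM with the drug (SE 0.38), Tead1 at 338 and 311 CPM against 43.8 and 115 CPM (1.75, SE 0.45), and Ptpn14 at 106 and 167 CPM against 22.4 and 58.6 CPM (1.47, SE 0.49). Stromal and myeloid sums moved in these libraries as given above, and their part in the values was not tested. The drug effect in BMDM against that in BV2 gave 0 calls among the 10 genes and 0.0251% of 15955 genes in edgeR, where 1793 had an unadjusted p under 0.05 and DESeq2 called 227. Ptpn14 was lower with panobinostat in both BV2 libraries and higher in both BMDM libraries, with a difference of 3.65 (SE 0.72) that passed in DESeq2 (3.72) and, in edgeR, only without hypoxic BMDM library 2 with DMSO (4.57) or with no filter beyond 1 count (3.77).

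**Figure D5:**
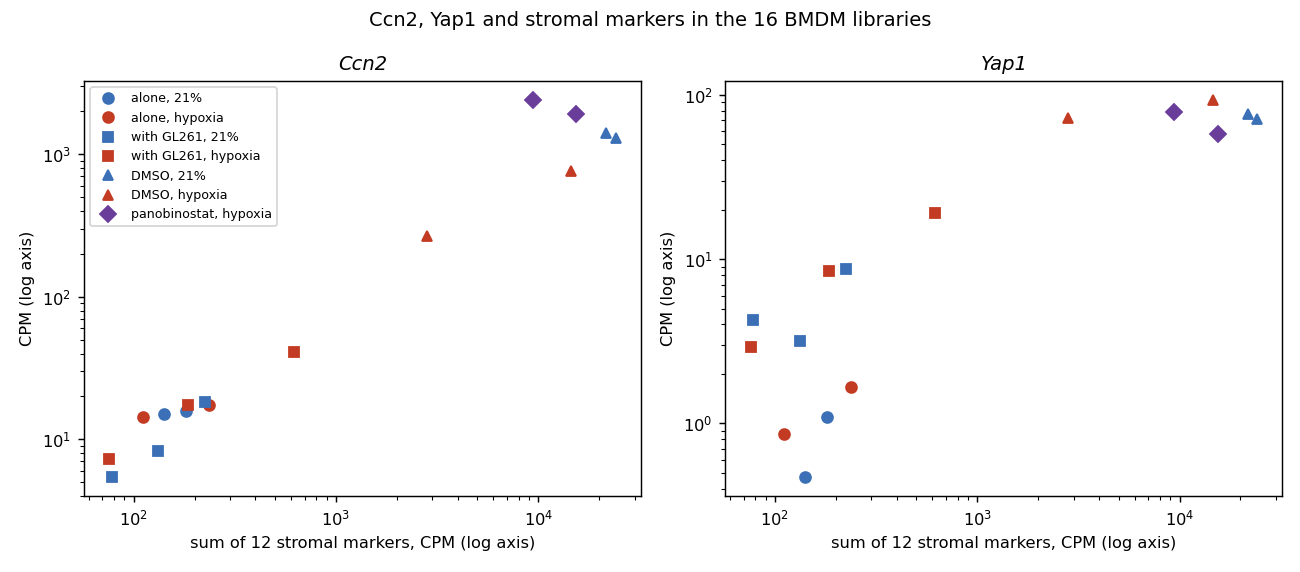
Ccn2 and Yap1 against the summed level of 12 stromal markers in the 16 BMDM libraries, in CPM on log axes; each point is 1 library. The 6 libraries of the panobinostat experiment lie between 2814 and 24182 CPM of stromal markers, all above the 10 of the first experiment, and also hold the 6 highest levels of Ccn2 and Yap1.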

How the data were processed

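The authors deposited 3 tables of raw counts, with 1 row for each Ensembl gene and 38 libraries in all. Per the labels' protocols, cells were fixed in glyoxal and poly(A) RNA was made into stranded libraries. The submitters' processing notes name Trimmomatic 0.36, STAR 2.6, Picard 2.17.1 (first table), HTSeq 0.9.1 and the build mm10. The annotation and strand setting are not given in the sources used here, so reads of Yap1 (Gm20416), Ccn2 (Gm15270), Ptpn14 (Gm26574) and Tead2 (Cd37) may be shared with the overlapping gene in brackets. Symbols were found for 55141 of 55487 identifiers, and exon lengths come from GENCODE M21.

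Counts were tested with edgeR 4.0.16 in R 4.3.3 (quasi-likelihood test, trimmed-mean scaling, its default filter with minimum count 10 and total 15), with all groups of a cell type and experiment in 1 fit, no covariate and Benjamini-Hochberg adjustment over all genes tested. The code was tested on simulated data. CPM values are plain. GL261-specific genes had at least 20 CPM in GL261 and a ratio of 100 or more to the other cell type, with 0.5 CPM added, and BV2-specific genes the reverse. Alternatives were the Wald test and size factors of DESeq2 1.42.0, no filter beyond 1 count, the replicate block, only the groups compared, each library left out, and leaving out partner-high genes (4-fold or more, with 0.5 CPM added). Leaving out the BMDM co-culture libraries numbered 3 was added after seeing the data.

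Replicate numbers are shared between groups. Same-numbered libraries of the normoxic and hypoxic BMDM co-cultures deviated together (correlations 0.455, 0.244 and 0.407). In the panobinostat experiment the correlations were 0.409 between oxygen levels and 0.593 between DMSO and drug in BMDM. They were 0.389 and 0.364 in BV2. Each of these groups has 2 libraries. Where the block added a call in these comparisons, it is given beside them. The pairing by number comes from the data, not the labels. The 10 genes, both pathway lists and the marker lists were chosen with earlier results of these data known. The text names all 10 genes in each comparison or gives their range, and of each pathway list the 2 largest rises and 2 largest falls with a call in the GL261 comparisons and in the BV2 and BMDM comparisons without glioma cells. The 5 genes most like Ccn2 needed a mean log2 CPM of at least 4. Intervals cover counting error only.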

Additional observations from a re-analysis of the deposited data

Results flagged for a closer look

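In 2 of the 10 genes the effect of hypoxia differed between GL261 and BV2 monocultures by the test of the difference itself in edgeR. Of all 16882 genes 37.4% passed in that test, with a median difference of -0.15. The Wwtr1 call was lost without normoxic BV2 library 1 (0.54). The log2 difference was 0.618 for Wwtr1, which rose more in GL261 (higher in hypoxia in 2 of 2 libraries of each line), and -3.219 for Ptpn14, which rose more in BV2 (again in 2 of 2 libraries of each line). Ptpn14 had 9 and 17 counts in the normoxic BV2 libraries, so the size of its rise there rests on few reads.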

How the results depend on the processing

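Counts of the 10 genes with a call kept within 1.5 times of the reported count unless given here, and no called direction reversed in any alternative run. The Wald test of DESeq2 gave 3 genes for co-culture in normoxic BMDM (0 in edgeR), 4 for hypoxia in BMDM with DMSO (1), 5 for panobinostat in BMDM (0) and 1 for the drug effect in BMDM against BV2 (0). With no filter beyond 1 count the numbers were 5 for hypoxia in co-cultured BMDM (2), 6 for normoxic co-culture in BMDM (0), 6 for hypoxia in BMDM with DMSO, 6 for panobinostat in BMDM, 1 for the hypoxia effect in co-culture against monoculture in BMDM (0) and 2 for the drug effect in BMDM against BV2. With DESeq2's size factors hypoxia in BMDM with DMSO gave 0. With the replicate block the counts were 4 for hypoxia in co-cultured BMDM, 3 for normoxic co-culture in BMDM, 2 for panobinostat in BV2 (1), 4 for hypoxia in BMDM with DMSO and 5 for panobinostat in BMDM. Mean correlations of same-numbered libraries were 0.033 in BV2, 0.18 in GL261, 0.15 in BMDM, and 0.30 and 0.45 in BV2 and BMDM of the panobinostat experiment. The block moved no other of these counts by over 1.5 times. A fit of only the groups compared gave 0 for co-culture in hypoxic GL261 (1), 2 for normoxic co-culture in BMDM, 0 for hypoxic co-culture in BMDM (5) and 0 for hypoxia in BMDM with DMSO. Leaving out partner-high genes gave 0 in normoxic (6) and hypoxic (7) BV2 co-culture, in normoxic GL261 co-culture (1) and in hypoxic BMDM co-culture. Without both BMDM libraries numbered 3 the counts were 0 for hypoxia in co-culture and 1 for hypoxic co-culture.

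With each library left out in turn the counts ranged from 2 to 4 for hypoxia in BV2 monocultures, 0 to 0 and 0 to 1 for co-culture in normoxic and hypoxic GL261, 1 to 5 for hypoxia in co-cultured BMDM, 0 to 7 for hypoxic co-culture in BMDM, 1 to 2 for hypoxia in BV2 with DMSO, 0 to 1 for hypoxia in BMDM with DMSO, 1 to 3 for the hypoxia effect in GL261 against BV2 and 0 to 1 for the drug effect in BMDM against BV2, where 1 is the value without hypoxic BMDM library 2 with DMSO. Such fits leave 1 library in a group of 2, which is taken to vary like the others. Over all genes the counts moved by over 1.5 times in 14 of 21 comparisons: between 1 and 361 for co-culture in normoxic GL261 (78), 20 and 737 in hypoxic GL261 (211), 451 and 2519 in normoxic BV2 (2152), 1367 and 3183 in hypoxic BV2 (2266), 1288 and 6289 for hypoxia in BMDM monocultures (3542), 3 and 1062 (243) and 4 and 2141 (1053) for co-culture in normoxic and hypoxic BMDM, 2920 and 6511 for hypoxia in BV2 with DMSO (4980), 292 and 4025 for panobinostat in BV2 (1941), 0 and 3259 for hypoxia (72) and 0 and 2867 for panobinostat (0) in BMDM, and up to 73, 128 and 613 for the hypoxia effects in co-culture against monoculture in GL261 and BMDM and the drug effect between BMDM and BV2. The cause was not tested. Depth limits the BV2 values: 3 counts are 0.127 to 0.237 CPM there.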
